A study of Homo sapiens with 2 samples.

Results

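The fatty acid desaturase genes FADS1, FADS2, FADS3 and SCD and the elongase genes ELOVL1, ELOVL2, ELOVL4, ELOVL5, ELOVL6 and ELOVL7 were examined in untreated SUDHL6 and HT cells. Both are established cell lines from human diffuse large B cell lymphoma, a cancer of mature B lymphocytes. They were cultured in RPMI medium with fetal bovine serum and antibiotics, and total RNA of each line was measured on 1 Affymetrix exon array. The labels give no genotype, passage or subtype of lymphoma for either line, and neither line carries an experimental modification in the labels. A gene took the probe set whose platform annotation names that gene alone, and the probe set with the higher mean of both arrays where it had several. By this rule 8 of the 10 genes had a value of their own, out of 14232 genes in all. ELOVL5 was covered by a probe set that also names the ribosomal protein pseudogene RPS16P5, and no expression value of ELOVL7 was analysed here. The 10 genes were selected on the difference between these same arrays, and the probe sets were chosen by their mean level, so the values below are a description and no test was made on them. With 1 array per line there is no spread between cultures to set a difference against.

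Desaturases place double bonds into fatty acyl-CoA chains, drawing electrons from cytochrome b5, and elongases catalyse the first step of a cycle that lengthens the chain in the endoplasmic reticulum. SCD and ELOVL6 serve saturated chains, the products of fatty acid synthase, and the monounsaturated chains made from them. FADS2, ELOVL5 and FADS1 act in order on essential fatty acids from the diet or serum to give long polyunsaturated chains such as arachidonic acid. ELOVL2 lengthens polyunsaturated chains after these steps, while ELOVL1 and ELOVL4 make very long chains. Lymphocytes place such chains in membrane phospholipids, from which signalling lipids are released.

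FADS1, FADS2 and ELOVL2 of the polyunsaturated branch, and ELOVL4, were higher in SUDHL6, ELOVL6 was higher in HT, and SCD, FADS3 and ELOVL1 were at similar values in both lines. In RNA of a whole culture, fewer expressing cells and less RNA per cell cannot be told apart. Values are log2 expression values, and differences are given as SUDHL6 minus HT. The dim level, used below as the mark of a low value, is the 95th percentile of 225 olfactory receptor genes in a line, and was 3.81 in SUDHL6 and 4.11 in HT. Differences of these olfactory receptor genes lay between -1.03 and 1.26 in the central 95%. Genes counted as different are those with at least 1 between the lines on the log2 scale and a higher value at or above the dim level. All 8 genes reached the dim level in at least 1 line. Of the 8, 4 were higher in SUDHL6, where 3.5% of all genes were counted, and 1 was higher in HT, where 4.62% were. Together 5 of 8 were counted as different (62.5%), against 8.12% of all genes and 12.3% of the 9405 genes that reached the dim level. On the deposited values the same 5 genes were at least 2 apart, against 2.26% of all genes, but in 4 of them the lower value was dim. With the dim level in place of dim values only FADS1 and ELOVL2, 2 of the 8, were at least 2 apart. The share of all genes at least 2 apart was not counted in that setting. At a difference of at least 1, 4 of the 8 and 1004 of all 14232 genes were counted in it. Since this contrast was used to propose the genes, nothing is read from these shares. The median difference of the 8 genes was 1.15, beside -0.04 for all genes. It was 0.49 with dim values raised to the dim level, where that of all genes was -0.30, and 0.21 over 9 genes with shared probe sets included.

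**Figure D1:**
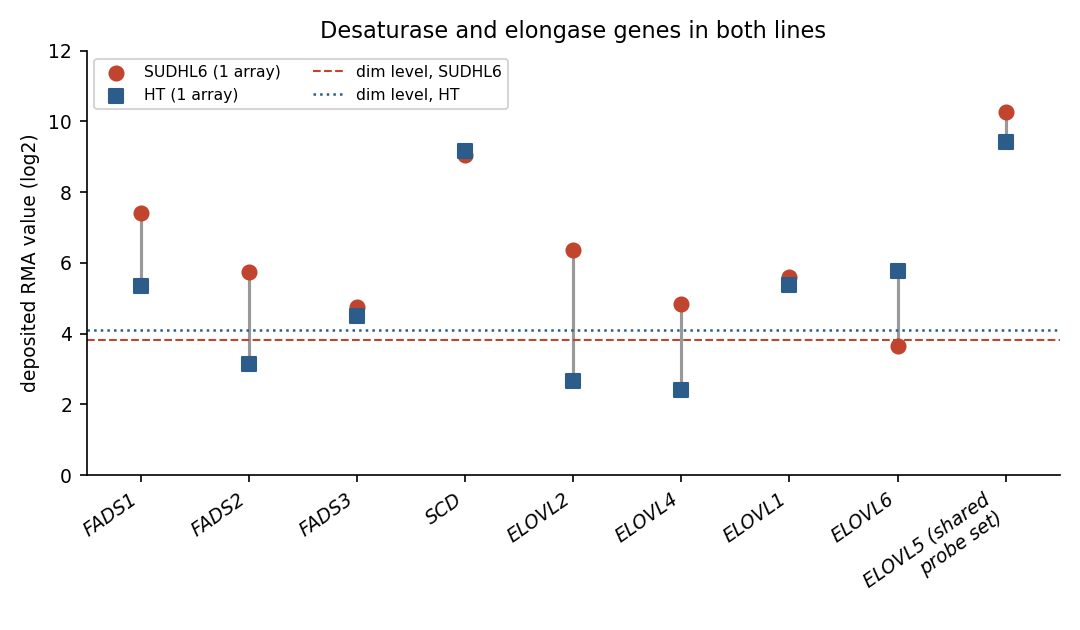
Deposited log2 value (vertical axis) of each desaturase and elongase gene in SUDHL6 (circles) and HT (squares), 1 array per line, with the dim level of each line as a horizontal line. FADS1, FADS2, ELOVL2 and ELOVL4 lie higher in SUDHL6 and ELOVL6 higher in HT. Each grey bar joins the values of 1 gene, and levels of different genes are not comparable.

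FADS1 encodes the delta-5 desaturase, which makes arachidonic acid from its precursor. SUDHL6 gave 7.41 and HT 5.36, a difference of 2.05. Both values lay above the dim level, so the 4.14-fold higher value in SUDHL6 was measured on both sides, which was the case for no other of the 5 genes counted as different. A second probe set that names FADS1 together with NCAPD2, a condensin gene on another chromosome, and SCARNA10 stood at 7.74 and 8.12, a difference of -0.37. Which of its genes sets that value was not tested, so it is not read as a second value of FADS1.

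FADS2 encodes the delta-6 desaturase, the first enzyme of the polyunsaturated branch. SUDHL6 gave 5.75 and HT 3.15, a difference of 2.60. The HT value lay 0.96 below the dim level, so SUDHL6 was at least 3.11-fold higher when the dim level stands in for HT. A probe set shared by FADS2 and its neighbour FEN1, a nuclease gene of DNA replication, stood at 8.54 and 8.41, a difference of 0.14. FADS3, the third gene of the cluster, was at 4.74 and 4.50, a difference of 0.24.

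ELOVL2 elongates polyunsaturated chains on the way to docosahexaenoic acid. It had the largest deposited difference of the 8 genes, with 6.37 in SUDHL6 against 2.67 in HT, or 3.70 between them. HT lay 1.45 below the dim level, and SUDHL6 was at least 4.77-fold higher. RefSeq lists an antisense gene, ELOVL2-AS1, beside it, and whether the probe set separates the strands is not given in the sources used here.

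ELOVL4 makes very long chains and is best known from retina and skin. SUDHL6 gave 4.85 and HT 2.42, which are 2.43 apart. SUDHL6 exceeded the dim level by 1.04, and HT lay 1.70 below it. Against the dim level SUDHL6 was at least 1.67-fold higher, which no longer reaches a difference of 1 (0.74). It was the only one of the 5 genes counted as different to drop under 1 in this way.

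ELOVL6, which extends palmitate to stearate, showed the opposite direction. HT gave 5.77 and SUDHL6 3.66, a difference of -2.12. SUDHL6 lay 0.16 below its dim level, and HT was at least 3.89-fold higher.

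SCD, the stearoyl-CoA desaturase that makes oleate, gave 9.05 in SUDHL6 against 9.15 in HT, or -0.10. These values lay 5.24 and 5.04 above the dim levels of SUDHL6 and HT. ELOVL1, an elongase of saturated very long chains, was at 5.59 and 5.37, a difference of 0.21. These 2 differences and that of FADS3 were smaller in size than 1, and no interval can be given for them. The shared probe set of ELOVL5, whose enzyme acts between FADS2 and FADS1, gave 10.26 in SUDHL6 against 9.41 in HT, or 0.85, and the part of RPS16P5 in it was not tested.

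**Figure D2:**
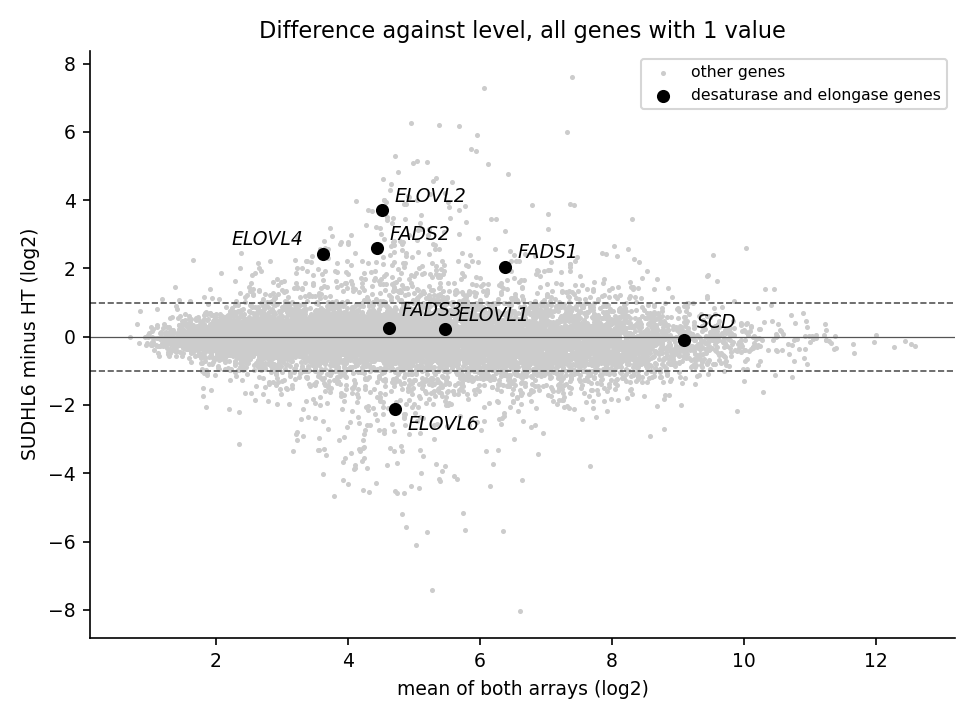
Difference between the lines, SUDHL6 minus HT on the log2 scale, against the mean of both arrays for 14232 genes (grey) with the 8 desaturase and elongase genes in black. Dashed lines mark differences of 1 either way. ELOVL2 at 3.70 and FADS1 at 2.05 lie in the sparse upper part, ELOVL6 at -2.12 in the lower part, and SCD near 0.

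The sequences upstream of the transcription start are shown for the 4 genes that were higher in SUDHL6 and, for comparison, for SCD, which was similar in both lines. They are the 250 bases before the start in RefSeq, build GRCh38.p14, read 5′ to 3′ on the strand of the gene. RefSeq windows matched all 10 genes, with 2 starts for FADS2, of which the first is shown, so 11 windows were searched. Capitals mark CCAAT, the box bound by NF-Y, and GGGCGG, the GC box bound by SP1, on either strand. Both factors are known partners of SREBP, the sterol-regulated activator of lipid genes.
FADS1, chr11:61817004-61817253, minus strand: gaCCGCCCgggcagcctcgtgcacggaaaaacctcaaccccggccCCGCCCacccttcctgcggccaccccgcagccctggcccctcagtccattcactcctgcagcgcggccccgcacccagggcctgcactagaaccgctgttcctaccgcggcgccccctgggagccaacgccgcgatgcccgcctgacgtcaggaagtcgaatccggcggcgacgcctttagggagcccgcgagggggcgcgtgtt
FADS2, chr11:61815953-61816202, plus strand: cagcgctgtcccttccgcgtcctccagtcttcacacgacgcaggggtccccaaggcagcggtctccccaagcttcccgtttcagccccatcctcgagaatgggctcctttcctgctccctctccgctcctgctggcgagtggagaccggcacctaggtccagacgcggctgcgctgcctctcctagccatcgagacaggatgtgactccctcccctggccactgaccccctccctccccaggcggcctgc
ELOVL2, chr6:11044306-11044555, minus strand: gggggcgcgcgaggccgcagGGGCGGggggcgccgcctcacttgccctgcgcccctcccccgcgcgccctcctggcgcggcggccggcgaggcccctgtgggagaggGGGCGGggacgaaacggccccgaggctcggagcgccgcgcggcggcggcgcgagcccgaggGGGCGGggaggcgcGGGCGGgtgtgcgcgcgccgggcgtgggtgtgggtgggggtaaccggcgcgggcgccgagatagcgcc
ELOVL4, chr6:79947554-79947803, minus strand: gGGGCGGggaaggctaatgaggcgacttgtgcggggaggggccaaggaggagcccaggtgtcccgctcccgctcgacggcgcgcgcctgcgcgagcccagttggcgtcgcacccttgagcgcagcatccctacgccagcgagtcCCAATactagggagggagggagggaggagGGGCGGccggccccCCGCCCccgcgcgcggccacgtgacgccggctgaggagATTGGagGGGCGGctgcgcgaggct
SCD, chr10:100346983-100347232, plus strand: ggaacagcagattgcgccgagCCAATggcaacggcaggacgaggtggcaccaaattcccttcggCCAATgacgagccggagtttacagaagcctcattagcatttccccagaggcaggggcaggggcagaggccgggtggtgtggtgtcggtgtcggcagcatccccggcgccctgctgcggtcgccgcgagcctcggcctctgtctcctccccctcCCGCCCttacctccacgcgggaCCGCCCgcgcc

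CCAAT was found in 5 of the 11 windows and GGGCGG in 9, against 32% and 42.6% of 35116 windows of the same length. The SCD window held 2 CCAAT and 2 GGGCGG matches. The ELOVL4 window held 2 CCAAT and 4 GGGCGG matches, the ELOVL2 window 4 GGGCGG, and the FADS1 window 2 GGGCGG. The FADS2 window shown held neither, while that of the other FADS2 start held 1 GGGCGG and 0 CCAAT. The SREBP motif TCACNCCAC, where N is any base, was in 0 of the 11 windows and in 0.883% of all windows. The E-box CACGTG was in 2, those of ELOVL4 and ELOVL5, against 6.34%, and TATAAA in 0, against 10.7%. In ELOVL1 a CCAAT match overlaps a GGGCGG match. The share of G and C ran from 56% in ELOVL5 and 57.2% in ELOVL6 to 84.8% in ELOVL2, beside a median of 58% over all windows, and its part in the count of GGGCGG was not tested. The windows of FADS3 and ELOVL6 lie within the span of a longer model of the same gene. Both FADS2 windows lie downstream of the FADS1 start on the FADS1 strand. A match is a description of the letters only.

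The FADS1 start and the FADS2 start used lie 800 bases apart on chromosome 11, and the genes are transcribed in opposite directions. The FADS2 start used, 61816203, lies downstream of the FADS1 start, 61817003, on the FADS1 strand. With these starts the transcribed stretches overlap. The other FADS2 start, 61816404, also lies downstream of the FADS1 start. Starts outside the windows searched were not examined, and whether FADS1 and FADS2 share a promoter was not tested. The neighbours of FADS1 and FADS2 did not share their difference. The 6 nearest named genes around the FADS cluster, DAGLA, MYRF, TMEM258, RAB3IL1, BEST1 and INCENP, differed by between -0.43 and 0.01. Of these, DAGLA and BEST1 were dim in both lines. MYRF (4.35 in SUDHL6 and 4.34 in HT) and RAB3IL1 (4.14 and 4.39) lay close above the dim level, which limits this comparison. Around ELOVL2 on chromosome 6, by contrast, NEDD9, a scaffold protein of cell adhesion, was at 6.08 in SUDHL6 and 4.08 in HT, and ERVFRD-1, an endogenous retroviral envelope gene, at 5.58 and 4.52. Both were thus higher in SUDHL6, and the median of the 6 genes around ELOVL2 was 0.77, but the part of the region in the ELOVL2 difference was not tested. Around ELOVL6 on chromosome 4, AP1AR, an adaptor complex regulator, was 2.74-fold higher in HT, at 6.24 and 7.70, and the median was -0.28. Around ELOVL4 the 6 neighbours lay between -0.24 and 0.59. CHUK near SCD and CDC20 next to ELOVL1 were 2.19-fold and 2.64-fold higher in HT, while SCD and ELOVL1 were not. Of 36 neighbours with a value, 2 were higher in SUDHL6 and 3 in HT (13.9%, against 8.12% of all genes), with a median of -0.07.

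**Figure D3:**
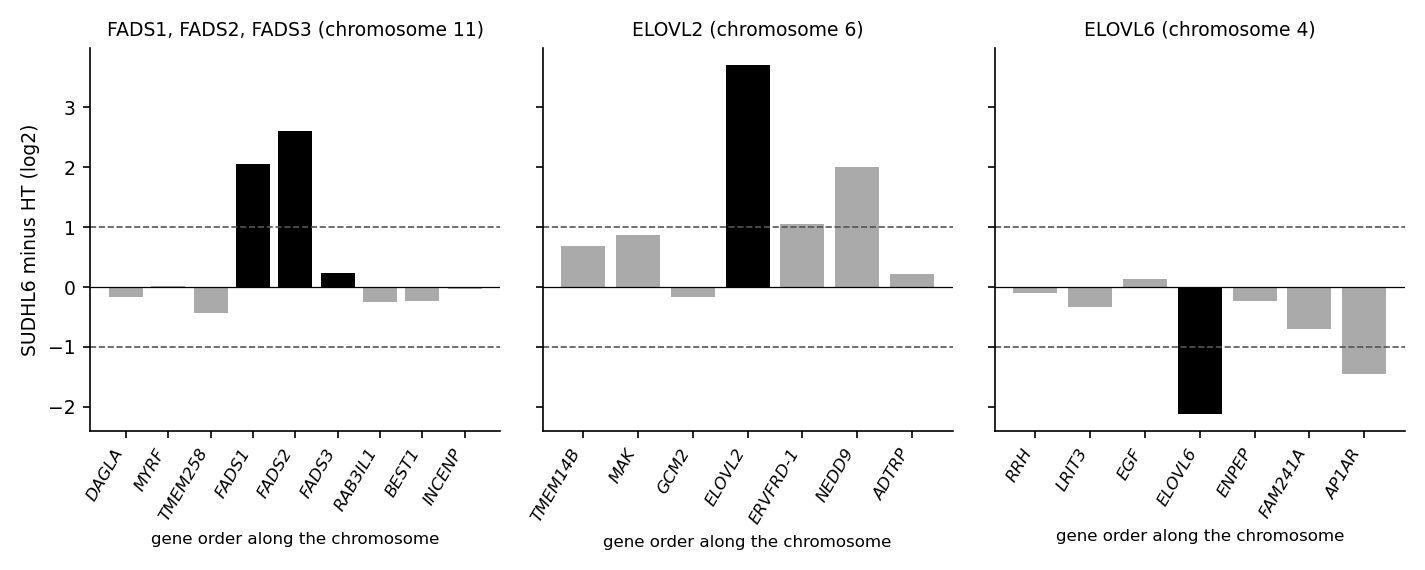
Difference, SUDHL6 minus HT on the log2 scale, of the FADS genes, ELOVL2 and ELOVL6 (black bars) and of the 3 named genes on each side (grey bars), in gene order and not to scale along the chromosome. Dashed lines mark 1 either way. The neighbours of the FADS genes stay between -0.43 and 0.01, whereas NEDD9 and ERVFRD-1 next to ELOVL2 pass 1.

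Genes that work with these enzymes were followed in 12 lists, with 160 genes that had a value. Of these, 8 were higher in SUDHL6 and 11 in HT (11.9%, against 8.12% of all genes), and the median was -0.03. Among the other desaturase and elongase genes, SCD5, the second stearoyl-CoA desaturase of humans, gave 4.21 in SUDHL6 against 5.96 in HT, 3.36-fold higher in HT and in the direction of ELOVL6. The other 5 with a value were under 1, among them ELOVL3, which was dim in both, at 2.57 and 2.87. Only 3 of 7 other enzymes of the elongation cycle had a value, and 0 were counted as different. HACD2 and HACD3, which remove water in the cycle, gave 6.01 and 5.55 in SUDHL6, against 6.83 and 6.47 in HT.

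The electron supply to the desaturases held the largest single difference of the 12 lists. CYB5A, the cytochrome b5 of the endoplasmic reticulum, gave 6.55 in SUDHL6 against 2.61 in HT, 3.94 apart or at least 5.39-fold higher in SUDHL6. CYB5R3, the main reductase of cytochrome b5, went the other way, at 4.52 and 5.74, 2.33-fold higher in HT. CYB5R2, a related reductase, was at 3.07 and 4.36, at least 1.46-fold higher in HT and under 1 when values are raised to the dim level. The outer mitochondrial form CYB5B was at 9.08 and 9.59. Of 7 genes with a value, 1 was higher in SUDHL6 (3.5% of all genes) and 2 in HT (4.62% of all genes), and the median was -0.49.

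Of the genes of fatty acid synthesis and its regulators, 1 in each list was counted as different (8.33% and 6.25%, against 8.12% of all genes). FASN, the fatty acid synthase, stood at 4.91 and 4.98 in SUDHL6 and HT, and ACLY, which supplies acetyl-CoA, at 7.24 and 7.19. Of 12 synthesis genes 11 were under 1, and MID1IP1, an activator of acetyl-CoA carboxylase, was at least 1.52-fold higher in HT, at 4.41 against a dim value in SUDHL6, and under 1 with values raised. Among 16 regulators, INSIG2, which holds SREBP back in the endoplasmic reticulum, was 2.78-fold higher in SUDHL6, at 5.97 and 4.49. SREBF1, the gene of the SREBP-1 activator, was at 5.04 and 5.19, and INSIG1, a partner of INSIG2 and a target of SREBP, at 6.98 and 7.24. The medians were -0.09 for synthesis and -0.01 for regulators.

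Of 20 genes with a value in the list of phospholipid remodelling, 4 were counted as higher in HT, beside 4.62% of all genes, and 0 as higher in SUDHL6, beside 3.5%. The other 16 were under 1 or dim, 8 of the 20 had a value above that of HT in SUDHL6, and the median of the list was -0.09. GPAM, the mitochondrial glycerol-3-phosphate acyltransferase, gave 5.21 in SUDHL6 against 7.55 in HT, 5.05-fold higher in HT. LPGAT1, a lysophospholipid acyltransferase, was at 5.64 and 7.61. LPCAT3, which places polyunsaturated chains into phospholipids, was at 7.00 and 8.37, 2.57-fold higher in HT and thus opposite in direction to FADS1, FADS2 and ELOVL2. AGPAT5, an acyltransferase of lysophosphatidate, was at 6.29 and 7.34.

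In the list of acyl-CoA synthetases and uptake, 2 of 20 genes were higher in SUDHL6, beside 3.5% of all genes, and 0 in HT, beside 4.62%. The lipoprotein receptor VLDLR was at 4.92 and 2.76 (at least 1.75-fold, under 1 with values raised), and DBI, which carries acyl-CoA, at 10.03 and 8.85, although DBI has pseudogene copies. In neutral lipid synthesis LPIN1, a phosphatidate phosphatase, was at least 5.01-fold higher in SUDHL6, at 6.44 and 4.02, and 10 of 11 genes were under 1. In the ceramide list SGMS1, a sphingomyelin synthase, was at 5.30 in SUDHL6 and 3.77 in HT, and 13 of 14 genes were under 1. The share counted as different was 10% for synthetases and uptake, 9.09% for neutral lipids and 7.14% for ceramide, against 8.12% of all genes.

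CPT1A, which admits long chains to mitochondria for oxidation, gave 3.57 in SUDHL6 against 5.41 in HT, where it was at least 3.03-fold higher. The other 16 genes of mitochondrial oxidation were under 1, and the median was -0.03. In peroxisomes, ABCD3, a transporter of fatty acids into the organelle, was 2.99-fold higher in HT, at 6.40 and 7.98, and PHYH, which oxidises branched chains, was at least 2.01-fold higher in SUDHL6, at 5.12 and 3.85. The other 13 genes with a value were under 1. In the list of lipid peroxide control, ALOX5, the lipoxygenase that makes leukotrienes from arachidonic acid, gave 6.17 in SUDHL6 against 4.10 in HT and was at least 4.15-fold higher in SUDHL6. LPCAT3 and the transferrin receptor gene TFRC (8.03 and 9.21) were higher in HT, and 19 of 22 genes were under 1. The share counted as different was 5.88% for mitochondrial oxidation, 13.3% for peroxisomes and 13.6% for lipid peroxide control, against 8.12% of all genes.

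**Figure D4:**
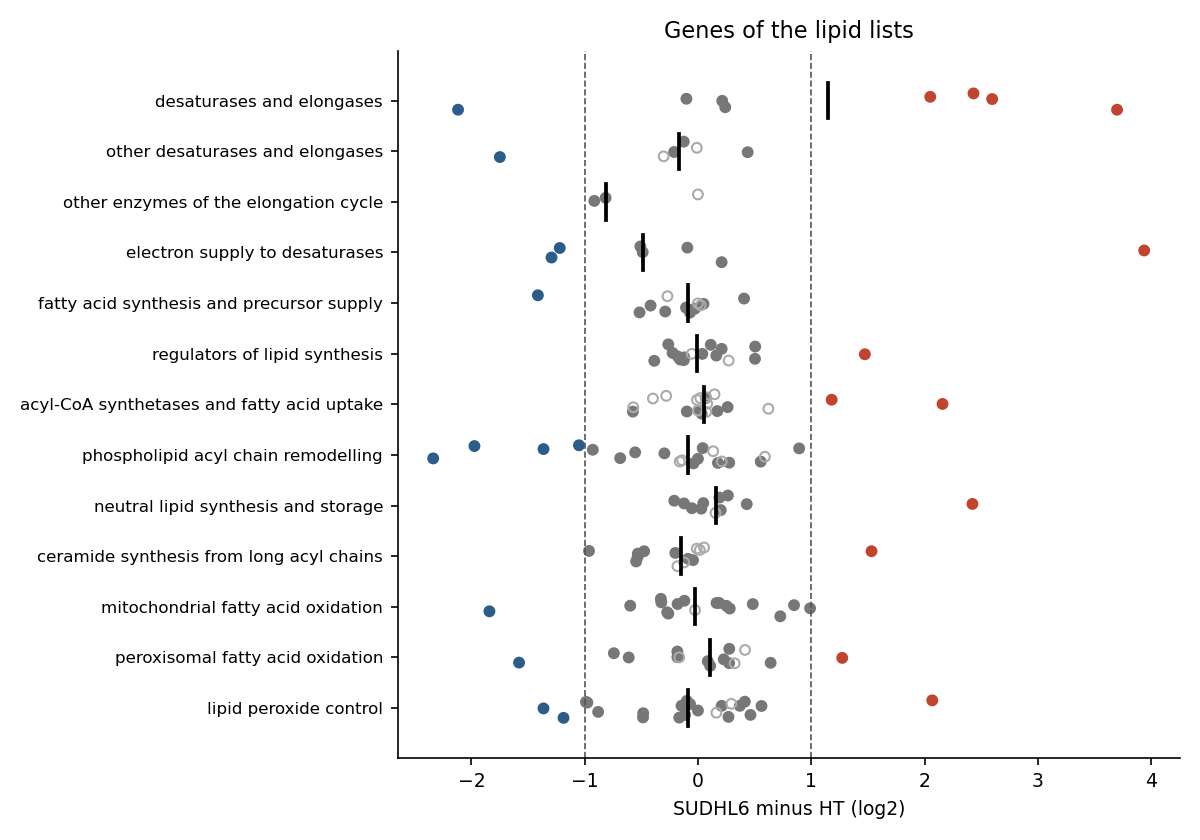
Difference of each gene, SUDHL6 minus HT on the log2 scale, in the desaturases and elongases and in 12 lists of related lipid genes. Red points were counted as higher in SUDHL6 and blue as higher in HT, grey points reached the dim level without being counted, open circles did not reach it, and black bars are medians. CYB5A at 3.94 and ELOVL2 at 3.70 lie furthest to the right, and GPAM at -2.34 furthest to the left.

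Both lines carried B cell genes. All 9 B cell markers with a value reached the dim level in at least 1 line, PAX5 at 7.00 and 7.63 and CD79A at 6.47 and 6.58 in SUDHL6 and HT. MS4A1 was higher in SUDHL6, and EBF1 and VPREB3 were higher in HT. Of 6 germinal centre markers 5 reached the dim level, BCL6 at 8.10 and 8.90, and 2 were counted as different in opposite directions. SERPINA9 was higher in HT, at 3.96 in SUDHL6 against 8.35, and GCSAM higher in SUDHL6, at 9.31 against 7.61. Markers of tissues with high desaturase activity were low, with 1 of 6 hepatocyte genes (APOA1, 5.83 and 5.86) and 1 of 4 adipocyte genes (PLIN1, 4.34 and 4.40) reaching the dim level. ALB was at 2.27 and 2.44 and ADIPOQ at 2.79 and 2.33. Of T cell, myeloid and epithelial markers, 3 of 8, 2 of 7 and 2 of 5 reached it, and 0 of these 5 lists' genes were counted as different. The log2 of the summed level of each list was 6.52 in SUDHL6 and 6.54 in HT for hepatocyte, 5.07 and 5.08 for adipocyte, 6.75 and 6.87 for T cell, 6.72 and 6.88 for myeloid and 8.47 and 8.35 for epithelial markers.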

How the data were processed

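Total RNA of SUDHL6 and HT was measured on 1 exon array each. The authors deposited log2 values of 22011 probe sets, and the submitters' processing notes list RMA and Affymetrix Expression Console; no source used here gives versions, settings or the build. RMA compresses small differences between dim genes. Of the probe sets, 14432 name 1 gene in GEO's platform annotation, 2408 several, and 5171 are unnamed here. Symbols were updated by gene number to RefSeq (GRCh38.p14), which matched 14404. Values were used as deposited, with Python 3.11.15 and pandas 2.3.3. With 1 array per line no test was possible, and the number of arrays limits the precision.

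The genes of interest and all lists were chosen with earlier results of these data known. Named genes are the 10 genes, up to 4 genes of each list with the largest difference counted (otherwise the 2 of highest mean), counted neighbours and markers; others (FASN, ACLY, SREBF1, INSIG1, CYB5B, ELOVL3, the FADS neighbours) were chosen after their values were seen. Neighbours are the 3 named protein-coding genes with a value on each side in RefSeq order. The counting was tested on simulated data, with differences placed only in genes whose mean reached both dim levels and with an assumed noise. That test does not measure the error of these arrays or cover genes of lower mean. The 11 alternatives covered scaling, probe set choice, the dim level and the threshold. No column of another sample was present.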

Additional observations from a re-analysis of the deposited data

How the results depend on the processing

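Under 11 alternatives ELOVL2 and ELOVL6 were counted as different in 11, and FADS1, FADS2 and ELOVL4 in 10 each. Several of these could not change that count. Each member had 1 probe set of its own, so taking the mean or the lowest left it as it was. A lower dim level, no dim level and the 1.5-fold threshold only loosen the rule and cannot remove a counted gene. FADS3, SCD and ELOVL1 were counted in 0. With probe sets that name several genes included, the brighter shared probe sets replace those of FADS1 (-0.37, reversed) and FADS2 (0.14). These shared values are not measures of FADS1 or FADS2 alone. ELOVL5 then enters the members, of which 3 were counted as different, where 1400 of all genes were. More genes have a value in that setting and their number is not given here, so no share is set beside these counts. The median of the members was 0.21 in that setting. With values raised to the dim level the median of the members was 0.49 and ELOVL4 fell to 0.74, because the lower value is replaced. That setting moved the median of all genes to -0.30. At a threshold of a 1.5-fold difference 2575 of all genes, 35 list genes and 8 neighbours were counted, and at 2 on the log2 scale 321, 5 and 1, beside 1155, 19 and 5 at a difference of 1, and 5 members under all 3 thresholds. The alternatives for the neighbours were chosen after seeing the data. No paired analysis was possible because each line has 1 array. No detection call was used, so a value under the dim level does not show that a gene was silent.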
